A study of Mus musculus with 14 samples.

Results

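The 10 genes described are the NF-κB factors and their inhibitors: Nfkb1, Nfkb2, Rel, Rela and Relb, which encode the 5 subunits of the transcription factor, and Nfkbia, Nfkbie, Nfkbid, Bcl3 and Tnfaip3, which encode proteins that restrain or modulate it. They were taken by symbol from the count matrix of 26683 gene symbols, and all 10 were present and expressed highly enough to be tested among 13427 genes. The cells were splenic CD4 T cells from 7 female mice aged 8 months, of which 4 were C57BL/6J (B6) and 3 were TC mice, namely B6.NZM-Sle1NZM2410/AegSle2NZM2410/AegSle3NZM2410/Aeg/LmoJ, which are lupus-prone congenics carrying the susceptibility intervals Sle1, Sle2 and Sle3 together on the B6 background. Each mouse gave a library of follicular helper T cells (Tfh, sorted as CD44+, CD162lo/- and PD-1+) and one of naive T cells (Tn, sorted as CD44-), so each cell type had 4 B6 and 3 TC libraries. The labels name no treatment. The protocol text speaks of wild-type and knockout mice, while every strain label names B6 or TC, and the Tn samples carry a Tfh source label beside a naive cell type label, so strain, cell type and title were followed. The TC mice are numbered 1, 2 and 4. In mm10 (GENCODE M21) the genes span Nfkb1 at chr3:135584655-135691547 (minus strand), Nfkb2 at chr19:46304320-46312385 (plus strand), Rel at chr11:23736847-23770970 (minus strand), Rela at chr19:5637483-5648130 (plus strand), Relb at chr7:19606217-19629438 (minus strand), Nfkbia at chr12:55489410-55492647 (minus strand), Nfkbie at chr17:45555703-45563169 (plus strand), Nfkbid at chr7:30421732-30428746 (plus strand), Tnfaip3 at chr10:19000910-19015657 (minus strand) and Bcl3 at chr7:19808462-19822770 (minus strand). Because TC differs from B6 at whole intervals on several chromosomes, a difference between the strains cannot be assigned to one locus.

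NF-κB proteins bind DNA as dimers and are held in the cytoplasm by inhibitors of the IκB family until a receptor signal leads to the inhibitor's destruction. In T cells the antigen receptor and CD28 act mainly on dimers that hold RelA, c-Rel and p50, the product of Nfkb1, while some receptors of the TNF family act through processing of the Nfkb2 product to p52, the partner of RelB. Several inhibitor genes are themselves switched on by NF-κB, which closes a feedback loop, and A20, the enzyme encoded by Tnfaip3, removes the ubiquitin chains through which receptor signals travel.

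The promoters of these genes are shown because NF-κB is known to switch on several of them. RefSeq (GRCm38.p6) gave a window from 250 bases before to 50 bases after a transcription start for 8 of the 10 genes, all but Nfkb1 and Relb. The windows were searched on both strands for the 10-base κB consensus, the binding sequence of NF-κB dimers, and matches may overlap each other. In 7 of the 8 genes (87.5%) at least 1 window held a match, against 591 of 9399 tested genes with a window (6.29%) and 1388 of all 27025 genes with a window (5.14%). At least 2 matches, overlapping ones included, were found for 4 of the 8 genes (50%) and for 0.83% of the tested genes. Rela was the member without a match. The match of Bcl3 lay 3 bases past its start site, outside the stretches printed here. In each stretch of 150 bases the capitals mark the κB matches, and the letters run 5′ to 3′ on the gene's own strand. A match describes the letters only and does not show that the factor binds there. The stretches of Nfkb2 (chr19:46304587-46304736, plus strand), Rel (chr11:23770970-23771119, minus strand), Nfkbia (chr12:55492648-55492797, minus strand), Nfkbie (chr17:45555550-45555699, plus strand), Tnfaip3 (chr10:19015411-19015560, minus strand) and Rela (chr19:5637391-5637540, plus strand) end at the base before the start, and that of Nfkbid (chr7:30422156-30422305, plus strand) ends 101 bases before it. Nfkb2 and Nfkbid have 3 windows each and Tnfaip3 2, and the start shown is the one with most matches.
Nfkb2: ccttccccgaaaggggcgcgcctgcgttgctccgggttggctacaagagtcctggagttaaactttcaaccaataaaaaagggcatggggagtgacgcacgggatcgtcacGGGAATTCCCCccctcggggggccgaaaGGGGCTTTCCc
Rel: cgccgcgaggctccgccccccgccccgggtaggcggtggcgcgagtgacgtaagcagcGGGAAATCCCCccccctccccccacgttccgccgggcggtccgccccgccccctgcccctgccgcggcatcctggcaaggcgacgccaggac
Nfkbia: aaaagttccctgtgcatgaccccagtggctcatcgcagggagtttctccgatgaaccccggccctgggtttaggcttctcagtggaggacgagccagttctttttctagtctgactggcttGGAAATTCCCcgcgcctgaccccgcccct
Nfkbie: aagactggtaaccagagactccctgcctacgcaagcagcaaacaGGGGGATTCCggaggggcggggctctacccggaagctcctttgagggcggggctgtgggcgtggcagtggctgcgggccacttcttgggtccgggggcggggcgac
Nfkbid: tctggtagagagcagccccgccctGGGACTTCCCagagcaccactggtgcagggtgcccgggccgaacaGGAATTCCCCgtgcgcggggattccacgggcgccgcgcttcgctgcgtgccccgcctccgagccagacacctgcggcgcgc
Tnfaip3: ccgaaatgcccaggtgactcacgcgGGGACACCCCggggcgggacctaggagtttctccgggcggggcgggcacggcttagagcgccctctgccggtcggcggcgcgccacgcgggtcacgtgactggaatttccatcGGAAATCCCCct
Rela: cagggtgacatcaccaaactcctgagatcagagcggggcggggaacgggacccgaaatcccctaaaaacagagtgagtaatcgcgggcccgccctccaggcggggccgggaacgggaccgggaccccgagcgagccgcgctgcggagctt

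The libraries held 15162309 to 20191558 counts. Levels are given in CPM (a gene's counts per 1e6 counts in that library), as means ± SD over 4 B6 or 3 TC libraries, and libraries are listed in the order of mice 1, 2, 3 and 4 (B6) or 1, 2 and 4 (TC). Folds and log2 fold changes come from the fit, which also scales the libraries by TMM (factors 0.938 to 1.07), so that a ratio of CPM values can differ from the fitted fold by about as much. A gene was called when its adjusted p from edgeR was below 0.05. The summed CPM of 8 Tfh markers was 4464 to 5625 in Tfh and 1713 to 1867 in Tn, and that of 8 naive markers was 2803 to 3408 in Tfh and 7674 to 9912 in Tn. The Tfh gate did not exclude regulatory cells, and 8 regulatory T cell markers, Foxp3 among them, summed to 2360.4 to 3334 CPM in Tfh and 140.2 to 226 in Tn. Of 10 B cell markers the sum was 76.2 to 121 CPM in Tfh and 1.17 to 2.48 in Tn, most of it from Cd22 (49.3 to 104 CPM in Tfh) and Pax5 (8.51 to 21.4 CPM in Tfh). Of 10 myeloid markers the sum was 9.25 to 19.1 CPM in B6 Tfh and 4.73 to 7.39 in TC Tfh, and 3.15 to 8.54 in Tn, with Siglech at 0 in every library and Cd14 in all but 1, and of 6 CD8 and NK cell markers it was 26.2 to 50.5. The part of these cells in the values below was not tested. In sorted pools, fewer cells of a type and less RNA per cell cannot be told apart.

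In B6 mice nearly all of these genes were higher in Tfh than in Tn. Called higher were all but Bcl3, 9 of 10, where 37.1% of all genes tested were called higher, 33.4% lower and 70.5% in either direction. The median log2 fold change of the 10 genes was 0.67, and that of all genes tested was 0.018. In TC mice 8 of 10 were called higher, all but Rela and Bcl3, with a median of 0.65 against -0.01 for all genes, where 33.8% were called higher, 32.4% lower and 66.2% in either direction. In B6 the Tfh and Tn libraries did not overlap for 9 of the 10 genes (63.6% of all genes), and in TC for 8 (70.7% of all genes). None of the 10 genes was lower in Tfh in either strain. The plot of the 10 genes by library shows the rise mouse by mouse.

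**Figure D1:**
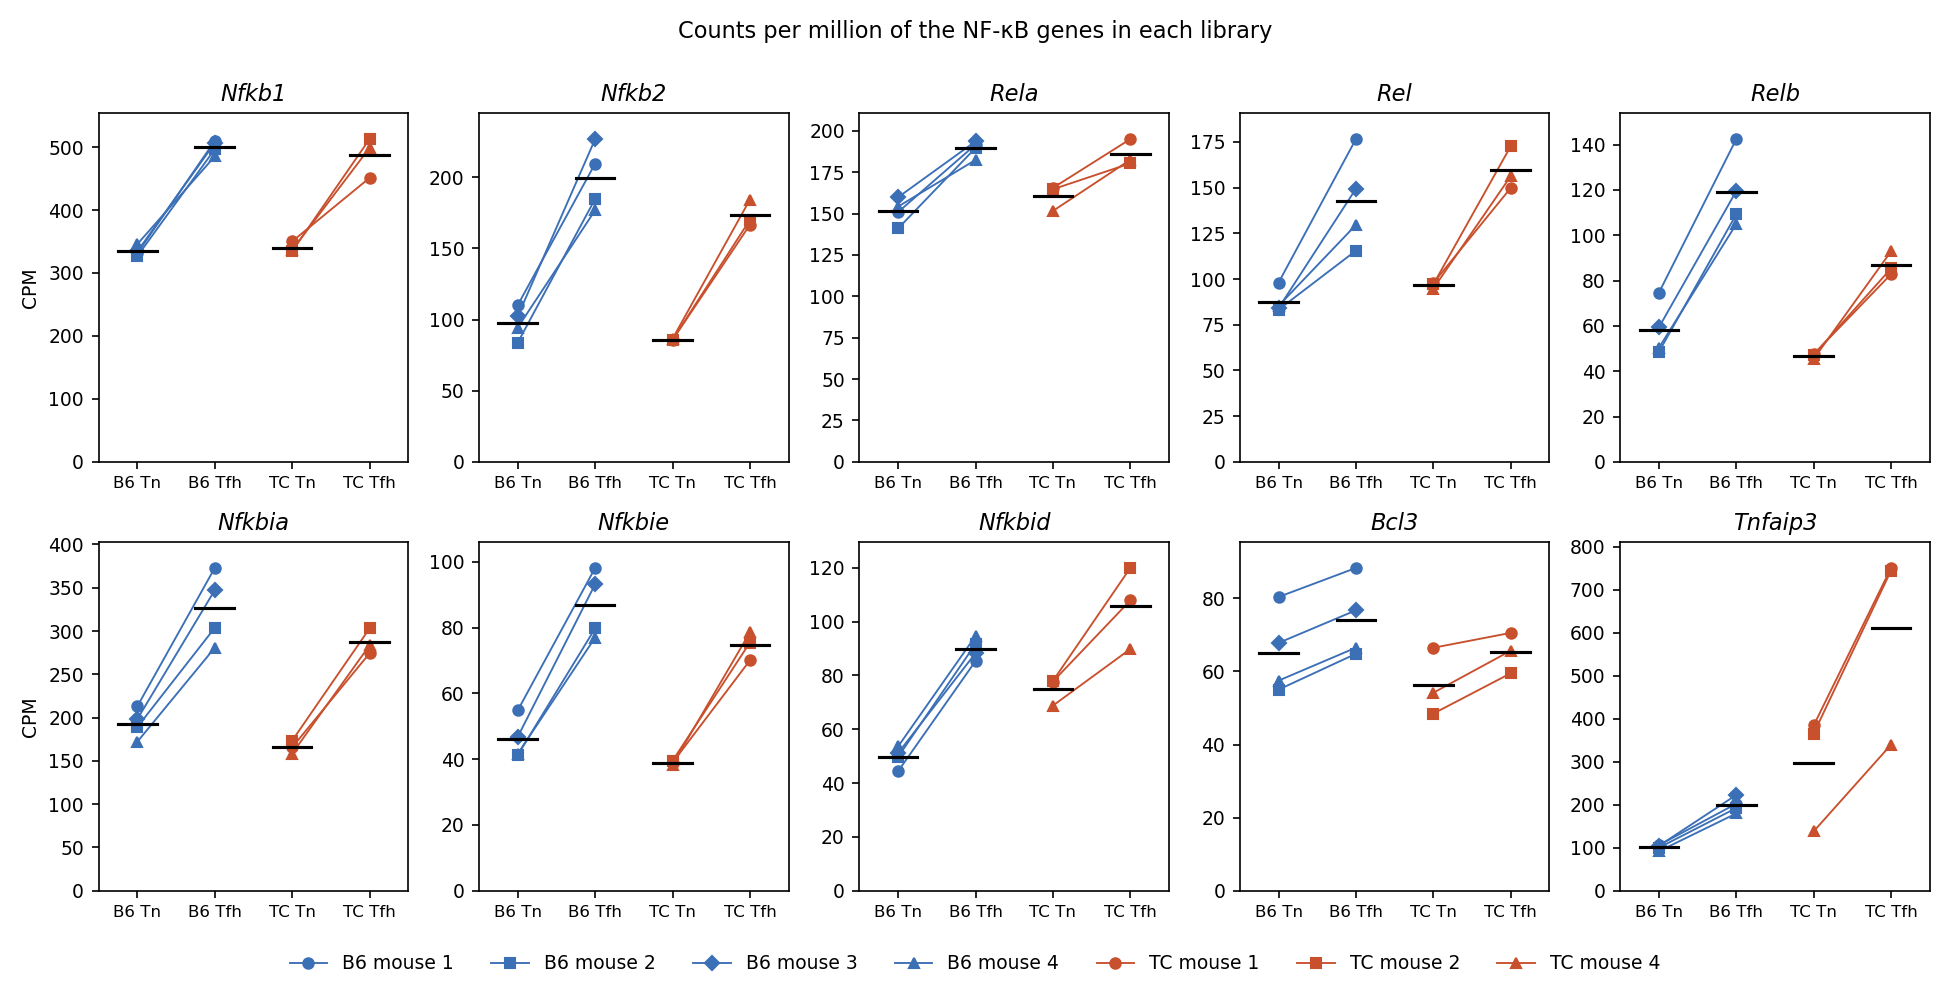
CPM (vertical axes, from 0) of the 10 genes by group; each symbol is a mouse, thin lines join the 2 libraries of a mouse and black bars are group means. Lines rise from Tn to Tfh for nearly every gene, and Tnfaip3 separates the strains, with TC mouse 4 below TC mice 1 and 2 in both cell types.

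Among the subunits the largest rises from Tn to Tfh were those of the alternative pathway. Nfkb2, the precursor of p52, had 209.6, 185, 227 and 177 CPM in the Tfh libraries of B6 mice and 110.2, 83.8, 102 and 94.4 in their Tn libraries. Every Tfh library was above every Tn library, a fold of 1.86 (log2 fold change 0.90, SE 0.08, adjusted p 2.84e-08). TC libraries gave 167, 170.1 and 184 CPM for Tfh and 85.7, 85.7 and 86.5 for Tn, a fold of 1.87 (adjusted p 2.31e-07). Relb, which encodes the partner of p52, had 142, 109, 119 and 105 CPM in the Tfh libraries of B6 mice and 74.6, 48.5, 59.3 and 50.3 in their Tn libraries. The groups did not overlap, although B6 mouse 1 was the highest of its group in both cell types, and the fold was 1.86 (log2 fold change 0.90, SE 0.12, adjusted p 8.73e-06). Among TC mice, Tfh had Relb at 82.8, 85.3 and 92.9 CPM and Tn 47.5, 47.2 and 45.4, a fold of 1.73 (adjusted p 0.000178).

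The subunits of the classical pathway rose less. Rel, which encodes c-Rel, the lymphoid subunit, had 177, 115, 149 and 129.6 CPM in the Tfh libraries of B6 mice and 98.0, 83.2, 84.0 and 85.3 in their Tn libraries. The lowest Tfh library, that of B6 mouse 2, was above the highest Tn library, and the fold was 1.48 (log2 fold change 0.57, SE 0.10, adjusted p 9.55e-05). In TC mice the Tfh libraries had 149.8, 173 and 156 CPM and the Tn libraries 97.8, 97.0 and 94.7, a fold of 1.53 (adjusted p 0.000199). Nfkb1, the precursor of p50, had 509.8, 497, 506 and 485 CPM in the Tfh libraries of B6 mice and 331, 327, 334 and 346 in their Tn libraries, the tightest groups of the 10 genes in B6 by log2 deviation, with a fold of 1.36 (log2 fold change 0.44, SE 0.05, adjusted p 1.11e-07). TC libraries gave 451, 513 and 499 CPM for Tfh and 350.2, 335 and 336 for Tn, a fold of 1.33 (adjusted p 2.5e-06). Rela, which encodes the main transactivating subunit, was nearest to even. It had 192, 189.7, 194 and 182 CPM in the Tfh libraries of B6 mice and 151, 141, 159.9 and 154 in their Tn libraries, a fold of 1.14 (log2 fold change 0.19, SE 0.05, adjusted p 0.00314). Among TC mice, Tfh had 195, 180.3 and 182 CPM and Tn 165, 165 and 152, and the fold of 1.07 was not called (log2 fold change 0.10, SE 0.06, adjusted p 0.131). Within single mice the Tfh to Tn ratio after TMM scaling was above 1 in 7 of 7 mice for each of the 5 subunits, at medians of 1.84 for Nfkb2, 1.83 for Relb, 1.53 for Rel, 1.38 for Nfkb1 and 1.10 for Rela.

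These unequal rises changed the make-up of the subunit transcripts. Per length, with the union of a gene's exons as its length, Rela made up 31.5 ± 1.59% of the 5 subunit transcripts in Tfh and 39.5 ± 1.71% in Tn of B6 mice, and 33.2 ± 2.05% and 42.1 ± 0.99% in TC. Nfkb2 made up 22.1 ± 1.34% in Tfh and 17.0 ± 0.94% in Tn of B6 mice, and 20.7 ± 0.78% and 15.1 ± 0.49% in TC. Relb made up 15.6 ± 1.23% and 11.9 ± 1.79% in B6, and 12.3 ± 0.53% and 9.68 ± 0.04% in TC. The ranges of Rela and Nfkb2 shares in Tfh and Tn did not overlap in either strain. Nfkb1 and Rel kept nearer shares, at 21.1 to 22.7% and 9.39 to 11.7% over the 4 group means. The order of the subunits depended on the length used: with the longest transcript as length, 4149 bases for Nfkb1 in place of 12061, Nfkb1 held the largest share (40.5 to 43.0%) and Rela 23.5 to 31.0%, while the shares of Nfkb2 and Relb were again higher in Tfh in both strains.

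**Figure D2:**
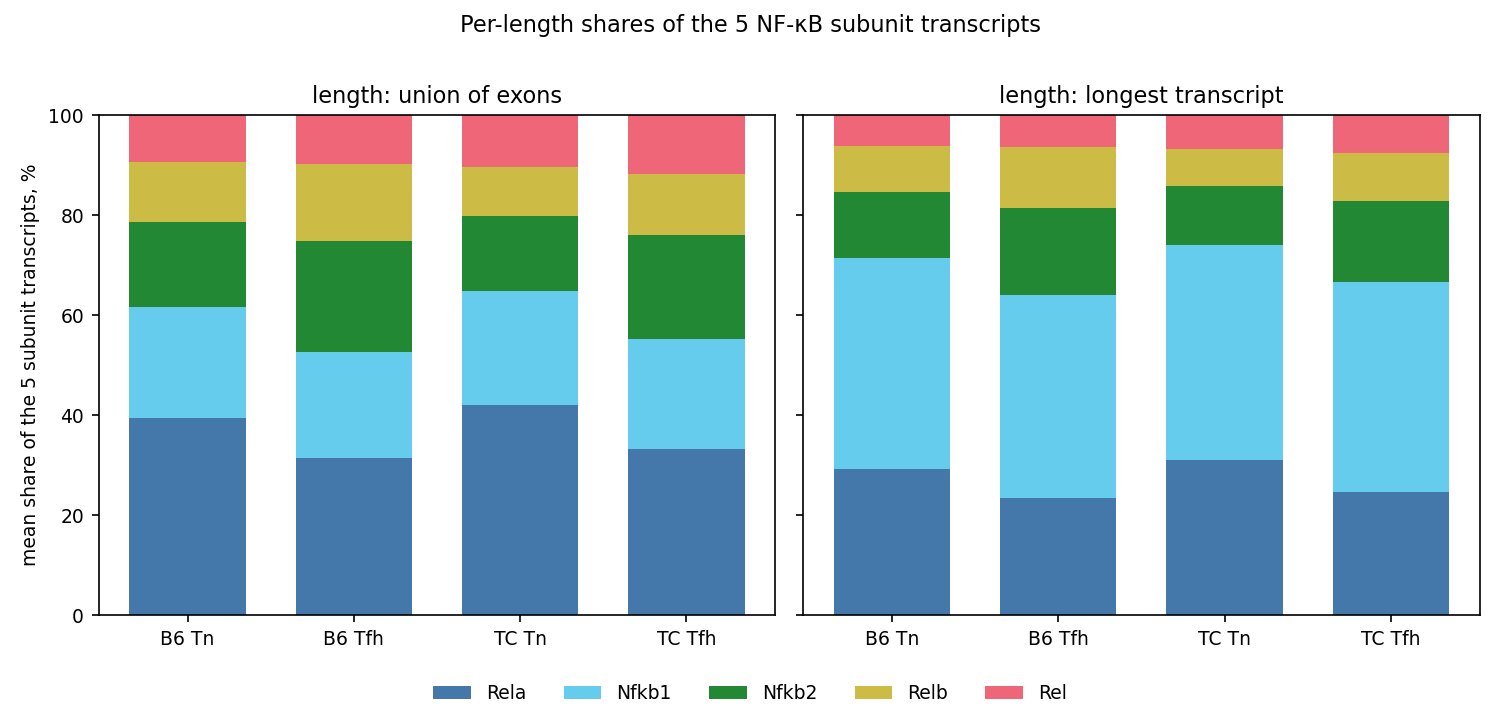
Mean share (percent, vertical axis) of each subunit transcript among the 5, per length, in the 4 groups, with the union of exons as length on the left and the longest transcript on the right. Rela gives way to Nfkb2 and Relb from Tn to Tfh with either length, and the size of the Nfkb1 share depends on the length chosen.

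The inhibitors that hold dimers in the cytoplasm rose with the subunits. Nfkbia, which encodes IκBα, the inhibitor that NF-κB resynthesizes fastest, had 373, 304, 347 and 281 CPM in the Tfh libraries of B6 mice and 213, 189, 198 and 172 in their Tn libraries. The groups did not overlap, and the fold was 1.54 (log2 fold change 0.62, SE 0.08, adjusted p 1.59e-06). In TC mice the Tfh libraries had 274, 303 and 283 CPM and the Tn libraries 166, 173 and 158, a fold of 1.60 (adjusted p 3.89e-06). Nfkbie, which encodes IκBε, had 98.1, 79.8, 93.2 and 77.0 CPM in the Tfh libraries of B6 mice and 54.8, 41.2, 46.8 and 41.6 in their Tn libraries, a fold of 1.72 (log2 fold change 0.78, SE 0.08, adjusted p 3.44e-07). TC libraries gave 70.0, 75.5 and 78.5 CPM for Tfh and 38.9, 39.5 and 38.3 for Tn, a fold of 1.78 (adjusted p 1.55e-06). Per length, Nfkbia was the most abundant of the 10 genes in all 4 groups, at 739 ± 105 (Tfh) and 409 ± 39.2 (Tn) in B6 and 699 ± 41.3 (Tfh) and 388 ± 15.3 (Tn) in TC, in length-scaled units that sum to 1e6 per library. Next in order in B6 came Rela, at 225 ± 8.43 in Tfh and 168 ± 9.90 in Tn, with the union of exons as length. By the longest transcript, Nfkb1 held a larger share of the subunit transcripts than Rela in B6. The shares were 40.5% against 23.5% in Tfh and 42.2% against 29.2% in Tn.

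Among the 10 genes, those of nuclear IκB proteins, which act on dimers already on DNA, differed, as Nfkbid rose and Bcl3 was not called. Nfkbid, which encodes IκBNS, had 85.3, 91.7, 88.3 and 94.7 CPM in the Tfh libraries of B6 mice and 44.4, 49.8, 51.2 and 53.6 in their Tn libraries, a fold of 1.65 (log2 fold change 0.72, SE 0.09, adjusted p 1.21e-06). Among TC mice, Tfh had 108, 120.0 and 89.8 CPM and Tn 77.7, 78.0 and 68.8, a fold of 1.31 (log2 fold change 0.39, SE 0.10, adjusted p 0.00209). Every Tfh library was again above every Tn library, and the within-mouse ratios were 1.57 to 1.73 in B6 and 1.21 to 1.42 in TC. Bcl3, which encodes a partner of p50 and p52 homodimers, had 88.3, 64.8, 76.7 and 66.5 CPM in the Tfh libraries of B6 mice and 80.4, 55.0, 67.8 and 57.5 in their Tn libraries. In TC mice the Tfh libraries had 70.5, 59.5 and 65.7 CPM and the Tn libraries 66.5, 48.4 and 54.2. Its groups overlapped in both strains, and its log2 fold changes of 0.05 (SE 0.13, adjusted p 0.757) and 0.10 (SE 0.16, adjusted p 0.587) were not called.

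Tnfaip3, which encodes A20, had 202, 192, 223 and 179.5 CPM in the Tfh libraries of B6 mice and 106, 99.9, 104 and 91.7 in their Tn libraries. TC libraries gave 750.3, 744 and 339 CPM for Tfh and 384, 365 and 138 for Tn. All 4 B6 mice and all 3 TC mice had more in Tfh, with within-mouse ratios of 1.72 to 1.95 in B6 and 1.82 to 2.28 in TC, but the TC groups overlapped because TC mouse 4 was low in both cell types. The fit gave a fold of 1.81 in B6 (log2 fold change 0.85, SE 0.33, adjusted p 0.0389) and of 1.92 in TC (log2 fold change 0.94, SE 0.37, adjusted p 0.0447). With mouse as a block the SE fell to 0.05 and 0.06 and the adjusted p to 2.54e-09 and 2.51e-09. Without the block the call was lost when any 1 of the 8 B6 libraries was left out (adjusted p 0.0505 to 0.0831 in B6), and in TC also without the Tfh library of TC mouse 1 (0.123) or 2 (0.119) or the Tn library of TC mouse 4 (0.0863). It was lost in 10 of 24 alternatives in B6 and 15 of 24 in TC. Among these were the fits without the filter (0.0631 in B6 and 0.0861 in TC) and without both libraries of B6 mouse 1 (0.101 and 0.0678). In TC it was also lost with only the groups compared (0.209) and with TMM computed without receptor, immunoglobulin, mitochondrial and ribosomal protein genes (0.0516). Leaving out both libraries of TC mouse 4 gave log2 fold changes of 0.87 (adjusted p 1.75e-08) in B6 and 0.91 (7.22e-07) in TC.

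**Figure D3:**
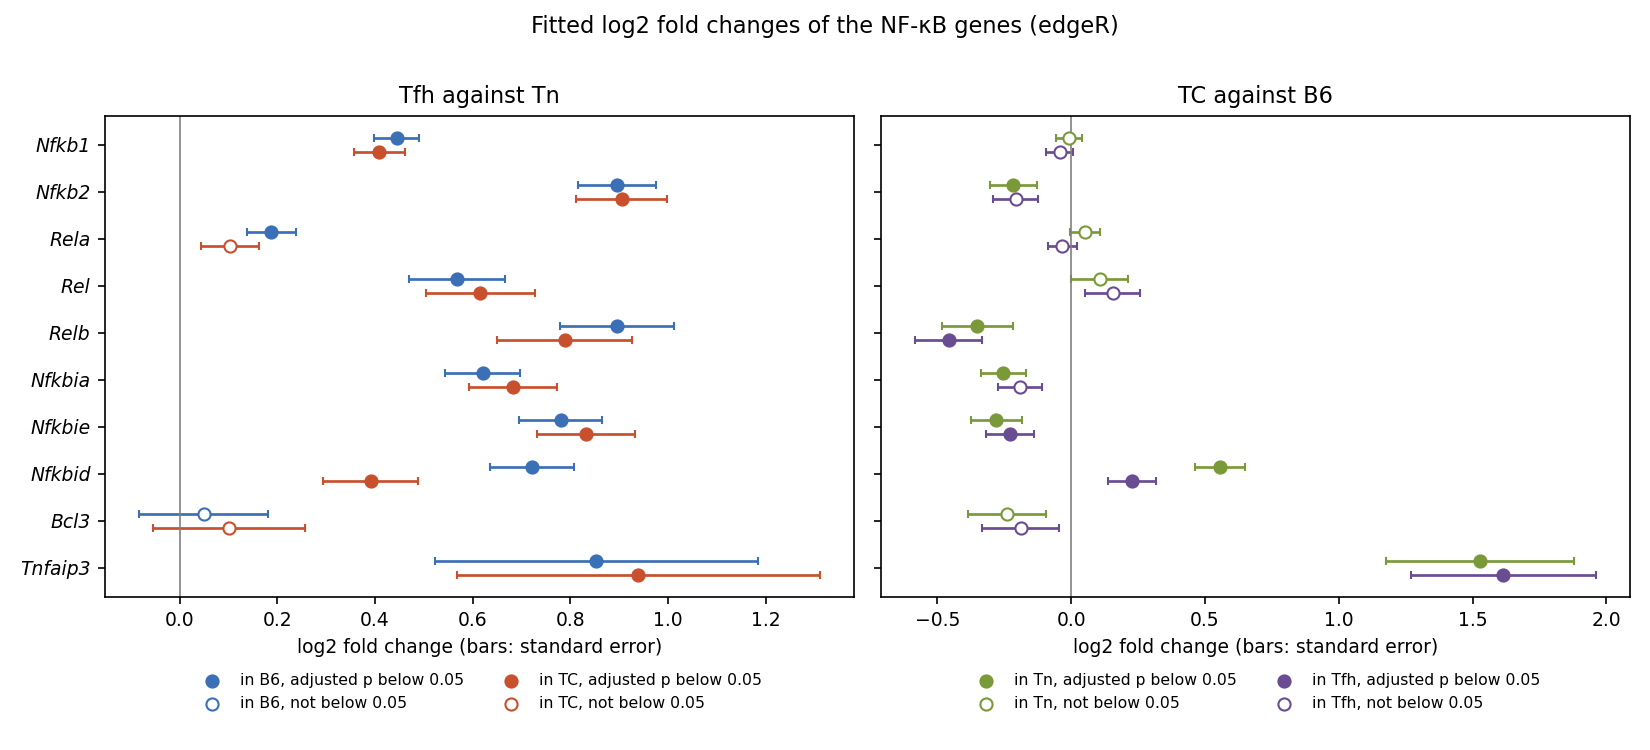
Log2 fold changes (horizontal axes) of the 10 genes with their standard errors, for Tfh against Tn on the left and TC against B6 on the right; filled points had an adjusted p below 0.05. Between cell types 9 genes have filled points in B6 and 8 in TC, and between strains Tnfaip3 lies alone beyond 1 in both cell types.

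Between the strains the group as a whole did not move one way. In Tfh 4 of the 10 genes were called, Tnfaip3 and Nfkbid higher in TC and Relb and Nfkbie lower, where 50.7% of all genes tested were called (24.7% higher and 25.9% lower). In Tn 6 were called, Tnfaip3 and Nfkbid higher and Nfkb2, Relb, Nfkbia and Nfkbie lower, where 51.9% of all genes were called (25.8% higher and 26.1% lower). Both counts are near the share of all genes. The strains did not overlap for 2 of the 10 genes in Tfh (49.6% of all genes) and for 4 in Tn (55% of all genes), or for 3 and 5 on TMM-scaled CPM. The number called fell to 2 in Tfh without the Tfh library of B6 mouse 3 or of TC mouse 1 or 2, and without the Tn library of B6 mouse 3 or of TC mouse 1 or 2, and rose to 6 without the Tfh library of B6 mouse 4. In Tn it fell to 2 without the Tn library of B6 mouse 1 or of TC mouse 4, or without both libraries of TC mouse 4, and to 3 without the Tn library of TC mouse 1.

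Tnfaip3 had the largest difference between the strains of the 10 genes. Each TC library stood above every B6 library of its cell type: the lowest TC Tfh library, at 339 CPM, was above the highest of B6, at 223, and the lowest TC Tn library, at 138, was above the highest of B6, at 106. Group means were 611 ± 236 CPM in TC Tfh and 199 ± 18.2 in B6 Tfh, a fold of 3.06 (log2 fold change 1.62, SE 0.35, adjusted p 0.00276). In Tn they were 296 ± 137 CPM in TC and 100.4 ± 6.34 in B6, a fold of 2.89 (log2 fold change 1.53, SE 0.35, adjusted p 0.00385). The call held in both cell types under every alternative run, at adjusted p values up to 0.0121 in Tfh and 0.0189 in Tn. Without TC mouse 4 the log2 fold changes were 1.93 and 1.88, with SE 0.08 in each. Per length, Tnfaip3 was placed among the 10 genes with the union of exons as length. In B6 it stood at place 9 in Tfh (100.4 ± 10.3) and in Tn (47.4 ± 3.13). In TC it stood at place 2 in Tfh (331 ± 126) and at place 3 in Tn (154 ± 69.8). The places in TC rest on TC mice 1 and 2. The lowest TC Tfh library, at 185, was below every Rela value (231 to 246) and within those of Nfkbid (151 to 202). The lowest TC Tn library, at 73.2, was below every Rela (189 to 202) and Nfkbid value (112 to 125). Places can differ with the longest transcript as length, which is 4149 bases against 12061 for Nfkb1 and 6199 against 7226 for Tnfaip3. They were not worked out with that length.

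The summed level of immediate early and stress genes moved with Tnfaip3 in the same libraries. The summed CPM of 16 immediate early and stress genes was 1636 to 1731 in Tfh and 1321 to 1409.7 in Tn of B6 mice, and in TC mice 1, 2 and 4 it was 5088, 5958 and 3247 in Tfh and 3663, 4678 and 2324 in Tn, so TC mouse 4 had the lowest sum here too. Of the 15 list members tested, 10 were called higher in TC in Tfh and 0 lower, and in Tn 10 were called higher and 1 lower. Of all genes tested, 24.7% were called higher and 25.9% lower in Tfh, and 25.8% and 26.1% in Tn. Atf3, the untested member, had at most 4 counts in any library, too few to compare the mice. Fos, a subunit of AP-1, stood at 672, 957 and 278 CPM in TC Tfh and at no more than 9.17 in B6 Tfh, and at 349, 837 and 128 CPM in TC Tn and no more than 7.98 in B6 Tn. By Pearson correlation of log2 CPM over the 14 libraries, the 2 genes most like Tnfaip3 were Klf4 (0.97) and Dusp1 (0.96), both immediate early genes, of which Dusp1 is also in the list summed here. Klf4 stood at 39.1, 40.6 and 12.0 CPM in TC Tfh and at 1.72 to 3.44 in B6 Tfh. The part of this programme, or of the handling of single mice, in the Tnfaip3 difference was not tested, and no batch or sorting date is in the labels. Nfkbia had log2 differences, TC against B6, of -0.19 in Tfh (SE 0.08, adjusted p 0.0653) and -0.25 in Tn (SE 0.08, adjusted p 0.0189). Nfkbid and Nfkbiz, described below, were higher in TC in both cell types.

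**Figure D4:**
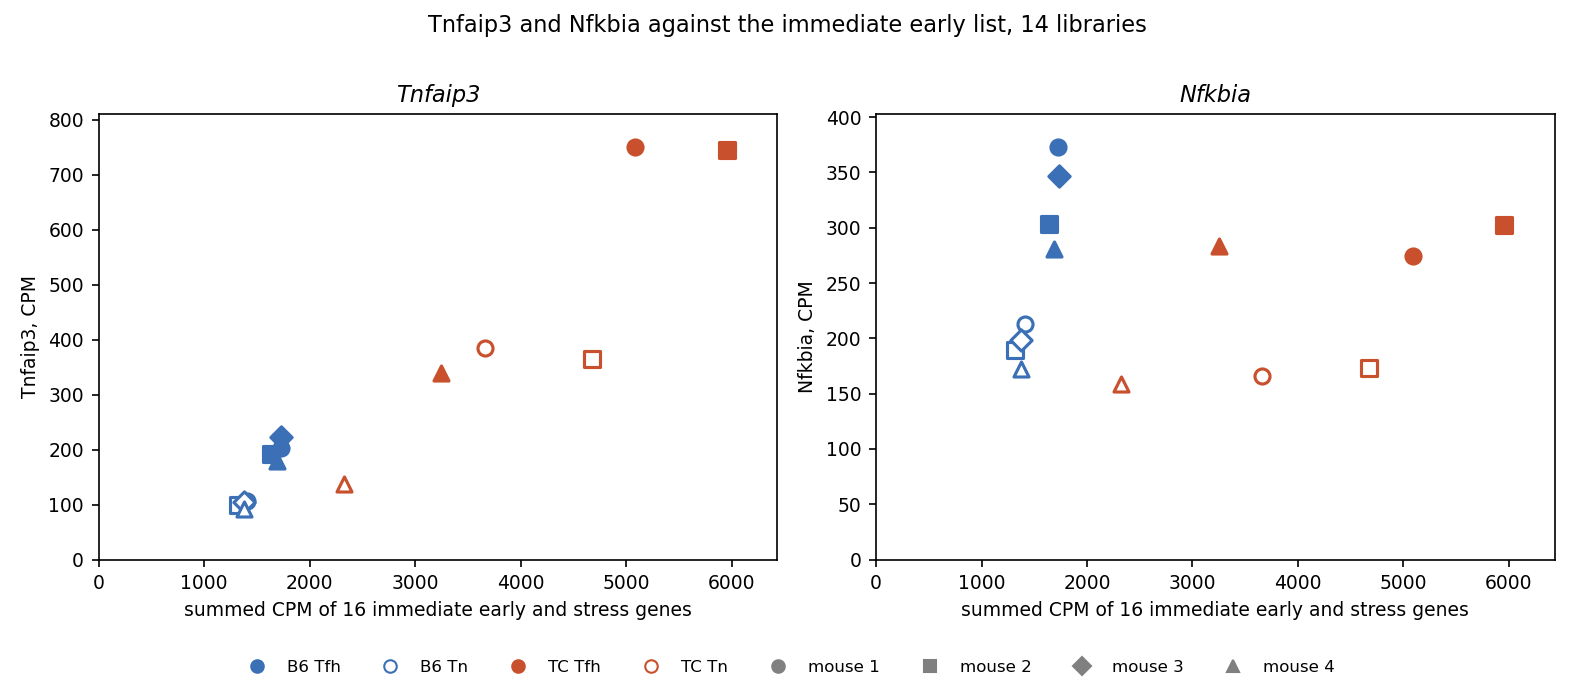
CPM of Tnfaip3 (left) and Nfkbia (right) on the vertical axes against the summed CPM of 16 immediate early and stress genes on the horizontal axes, 1 point per library, 14 in all. For Tnfaip3 the TC libraries spread out with the list sum and TC mouse 4 lies nearest to B6, while the Nfkbia values of TC libraries lie within or just below the B6 ranges of their cell type.

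Tnfaip3 lies on chromosome 10, and Sle1, Sle2 and Sle3 are known to lie on other chromosomes. Of its tested neighbours within 1000 kb, 10 in all, 5 were called between the strains in Tfh and 6 in Tn, near the shares of all genes called (50.7% and 51.9%), with log2 differences of -0.56 to 0.96 and -0.72 to 1.13. This window was added after the Tnfaip3 values were seen. The part of nearby sequence differences in the Tnfaip3 values was not tested. The nearest neighbours on either side were Perp, 144 kb away, and Ifngr1, which encodes an interferon-γ receptor chain, 576 kb away. Perp was not called in either cell type, with log2 differences of 0.52 (SE 0.25, adjusted p 0.0826) in Tfh and 1.13 (SE 1.41, adjusted p 0.534) in Tn. In Tn Perp stood at no more than 0.0546 CPM in any library, so its value, the upper end of the Tn range, is uncertain. The neighbours Arfgef3 and Ect2l were also near 0 in Tn, at no more than 0.109 and 0.546 CPM. Ifngr1 had log2 differences of -0.56 (SE 0.23, adjusted p 0.069) in Tfh and -0.72 (SE 0.22, adjusted p 0.017) in Tn.

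Nfkbid was the other gene higher in TC. Whether its strain difference was larger in Tn than in Tfh is the interaction term, which was not called (adjusted p 0.245 in edgeR, 0.23 in DESeq2 and 0.0879 in voom) except with mouse as a block (0.0121). In Tn every TC library, at 68.8 to 78.0 CPM, was above every B6 library, at 44.4 to 53.6, a fold of 1.47 (log2 fold change 0.56, SE 0.09, adjusted p 0.000111) that was called under every alternative run. In Tfh the strains overlapped, since TC mouse 4 at 89.8 CPM stood below B6 mice 2 and 4, and the fold of 1.17 (log2 fold change 0.23, SE 0.09, adjusted p 0.0461) was lost in 13 of 23 alternatives, among them the fit without the Tfh library of TC mouse 2 (0.14, adjusted p 0.21). Other single libraries whose removal ended this call were the Tfh libraries of B6 mice 1, 2 and 3 and TC mouse 1 and the Tn libraries of B6 mice 2 and 3 and TC mice 1 and 2, at adjusted p values of 0.0546 to 0.0983.

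Relb was lower in TC. In Tfh every TC library, at 82.8 to 92.9 CPM, was below every B6 library, at 105 to 142, lower by a fold of 1.37 (log2 fold change -0.46, SE 0.12, adjusted p 0.00773) that was called under every alternative run. In these Tfh libraries the summed markers of other cells were lower in TC as well, without overlap: 4.73 to 7.39 against 9.25 to 19.1 CPM for the 10 myeloid markers and 76.2 to 104 against 109.8 to 120.9 CPM for the 10 B cell markers, and their part in the Relb difference was not tested. In Tn every TC library, at 45.4 to 47.5 CPM, was below every B6 library, at 48.5 to 74.6, but B6 mouse 1 held the upper end, and the log2 fold change of -0.35 (SE 0.13, adjusted p 0.0382) became -0.21 (adjusted p 0.0889) without its Tn library. That call was also lost without the Tfh library of B6 mouse 2 or 3, or the Tn library of B6 mouse 3 or TC mouse 1, 2 or 4, at adjusted p values of 0.052 to 0.111. Further losses came without the filter (0.108), with only the groups compared (0.0669) and without both libraries of TC mouse 4 (0.136), in all 10 of 23 alternatives. Relb, Nfkbid and Bcl3 lie on chromosome 7, which also carries Sle3. That interval's bounds were not used here, and reads from TC alleles were aligned to the B6 reference.

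Nfkbie and Nfkbia had smaller strain differences. Nfkbie was lower in TC by log2 -0.23 in Tfh (SE 0.09, adjusted p 0.0448), with groups that overlapped in CPM but not in TMM-scaled CPM, and by -0.28 in Tn (SE 0.10, adjusted p 0.0219), where no libraries overlapped. Nfkbia in Tn, at the value given above, overlapped between strains in CPM but not in TMM-scaled CPM. The Nfkbie call in Tfh was lost without any 1 of the 3 TC Tfh or 3 TC Tn libraries, the Tfh library of B6 mouse 1 or 3 or the Tn library of B6 mouse 3 (adjusted p 0.0539 to 0.195). In Tn the Nfkbie call was lost without the Tn library of B6 mouse 1 (0.0721) or TC mouse 1 (0.0512) or 4 (0.0715), and the Nfkbia call without that of B6 mouse 1 (0.0585) or TC mouse 4 (0.0834). Nfkb2 was lower in TC by log2 -0.22 in Tn (SE 0.09, adjusted p 0.0486), a call lost in 15 of 23 alternatives, among them the fits without any 1 of the TC libraries, the Tfh library of B6 mouse 1 or 2 or the Tn library of B6 mouse 1, 3 or 4 (0.0532 to 0.145), and by -0.21 in Tfh (SE 0.08, adjusted p 0.0513), which was called without the Tfh library of B6 mouse 4 (0.0294) or the Tn library of B6 mouse 1 (0.0382) or 2 (0.029), in limma voom with a random mouse effect (-0.20, adjusted p 0.0463), with TMM computed without receptor, immunoglobulin, mitochondrial and ribosomal protein genes (0.0291) and without the filter (0.0464).

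Rel, Rela, Nfkb1 and Bcl3 were called between the strains in neither cell type. Their log2 differences, TC against B6, were 0.15 (SE 0.10), -0.03 (SE 0.05), -0.04 (SE 0.05) and -0.19 (SE 0.14) in Tfh and 0.11 (SE 0.11), 0.05 (SE 0.05), -0.01 (SE 0.05) and -0.24 (SE 0.15) in Tn. Rel in Tfh was called when the Tfh library of B6 mouse 1 was left out (0.28, adjusted p 0.0109).

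The Tfh to Tn ratio of these genes was compared between the strains by the interaction term, whose positive values mean a higher ratio in TC. In edgeR it called none of the 10 genes, with 1 at an unadjusted p under 0.05, where 2.1% of all genes tested were called. DESeq2 and limma voom also called none of the 10. The lowest p was that of Nfkbid, at -0.33 (SE 0.13, adjusted p 0.245). With mouse as a block it was -0.34 (SE 0.07, adjusted p 0.0121) and was the 1 gene called. For Tnfaip3 the term was 0.09 (SE 0.49, adjusted p 0.978).

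Mice of one strain differed in several of these genes at once. B6 mouse 1 was the highest of the B6 mice for Rel, Relb, Nfkbia, Nfkbie and Bcl3 in both cell types, by log2 deviations from the group mean of 0.36 in Tn and 0.24 in Tfh for Relb and 0.30 and 0.23 for Bcl3, and it was the lowest for Nfkbid, at -0.18 and -0.11. B6 mouse 4 was low for Relb (-0.19 and -0.16) and Nfkbia (-0.17 and -0.19). In TC the spread of Tnfaip3 stood out, with TC mouse 4 at -0.98 in Tn and -0.78 in Tfh, and Nfkbid of that mouse was low in both as well (-0.13 and -0.25).

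**Figure D5:**
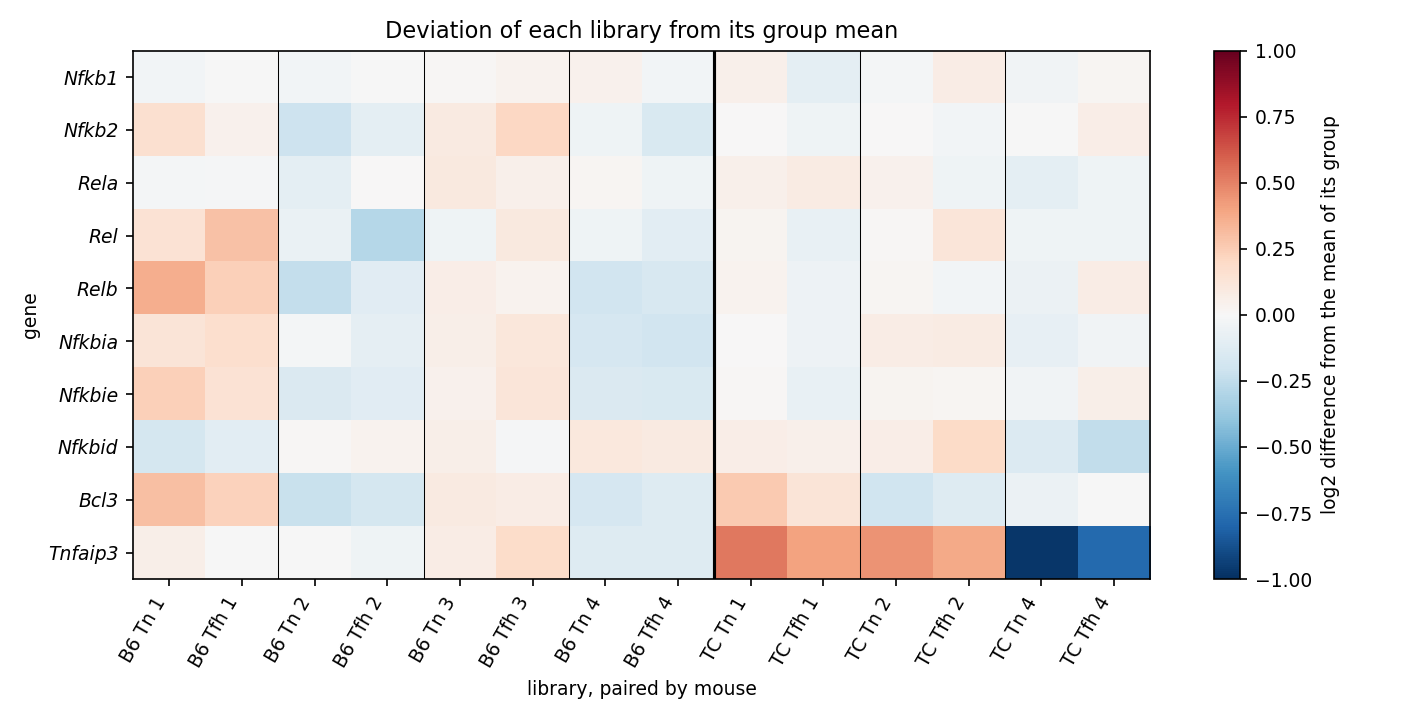
Log2 difference (colour) of each library from the mean of its group for the 10 genes (rows), with the Tn and Tfh libraries of a mouse side by side (columns) and a thick line between strains. The 2 libraries of a mouse share colour for many genes: B6 mouse 1 is warm for Relb and Bcl3, and TC mouse 4 is blue for Tnfaip3.

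Upstream of these factors, the genes of the signalling chain moved in both directions. The counts of the 6 lists that follow stand beside 37.1% of all genes called higher and 33.4% lower in B6 Tfh against Tn, 33.8% and 32.4% in TC Tfh against Tn, 24.7% and 25.9% in TC against B6 in Tfh, and 25.8% and 26.1% in TC against B6 in Tn. Of 14 genes that link the antigen receptor to NF-κB, 3 were called higher and 5 lower in B6 Tfh, and 4 and 6 in TC Tfh, with median log2 fold changes of -0.03 and -0.12. Malt1, a protease that acts downstream of the antigen receptor, rose from 170.4 ± 10.1 CPM in B6 Tn to 605 ± 67.9 in B6 Tfh, a fold of 3.24, and from 191 ± 13.99 to 729.9 ± 139.8 in TC, a fold of 3.54. Traf6, a ubiquitin ligase, fell by log2 fold changes of -0.51 in B6 and -0.36 in TC, and Tab2, an adaptor of the kinase TAK1, rose by 0.37 and 0.38. Between the strains 6 of the 14 were called higher in TC Tfh and 1 lower, and 5 and 2 in Tn. Rnf31, a subunit of the linear ubiquitin ligase complex, stood at 125 ± 0.74 CPM in TC Tfh and 103 ± 1.19 in B6 Tfh, and Tab3 was higher in TC Tfh by a fold of 1.28. Bcl10 was lower in TC Tn, at 51.3 ± 2.98 against 64.0 ± 4.83 CPM. Ube2v1 was called higher in TC in both cell types, but at 1.99 to 2.12 CPM against 0.534 to 0.601 it is a gene with close copies, so its counts are uncertain.

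Of the 3 IκB kinase genes 2 were called lower in Tfh in each strain and 0 higher. Ikbkb, the catalytic subunit of the classical pathway, fell from 309 ± 36.1 CPM in B6 Tn to 204 ± 12.1 in B6 Tfh, a fold of 1.66 (log2 fold change -0.73, SE 0.07, adjusted p 8.49e-08), and from 464 ± 18.8 to 261 ± 17.7 in TC, a fold of 1.92. Chuk, the kinase of the alternative pathway, was lower in Tfh by log2 -0.17 in each strain, and Ikbkg, the regulatory subunit, was not called (log2 -0.09 and -0.10). TC was higher than B6 for Ikbkb by folds of 1.28 in Tfh and 1.47 in Tn and for Chuk by 1.21 in both, so 2 of the 3 kinase genes were called higher and 0 lower, while Ikbkg was at -0.03 and -0.02. Of 6 genes of the alternative pathway, Chuk among them, 2 were called higher and 2 lower in Tfh of each strain. Map3k14, which encodes the kinase NIK, fell from 123 ± 10.7 to 64.5 ± 4.44 CPM in B6 and from 134 ± 6.95 to 74.0 ± 0.446 in TC, while its brakes Traf2 (folds of 1.43 and 1.26) and Birc2 (1.22 and 1.20) rose. Between the strains 3 were called higher in TC Tfh and 0 lower, and in Tn 2 and 1, where Birc3 was lower by a fold of 1.14.

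Further brakes of the pathway were as mixed. Of 18 other genes, among them IκB proteins, A20-binding proteins and deubiquitinases, 8 were called higher and 7 lower in B6 Tfh, and 8 and 5 in TC Tfh, with median log2 fold changes of 0.03 and 0.15. Otud7b, a deubiquitinase, rose by folds of 2.42 in B6 and 2.35 in TC, and Tnip2, a partner of A20, by 2.39 and 2.11. Tnip3, another A20 partner, stood at 3.24 ± 0.654 CPM in B6 Tfh, 1.57 ± 0.32 in TC Tfh and under 0.1 in Tn of both strains. Between the strains 5 were called higher and 5 lower in each cell type. Nfkbiz, which encodes the nuclear IκBζ, was higher in TC in both, at 211 ± 26.2 against 90.4 ± 5.05 CPM in Tfh, a fold of 2.33 (adjusted p 3.02e-06), and at 122 ± 19.9 against 53.1 ± 5.84 in Tn, a fold of 2.24 (adjusted p 3.69e-06). Nlrc3, a negative regulator of T cell activation, was higher in TC by folds of 1.31 and 1.41, Tnip2 by 1.40 in Tn, and Tnip3 was lower in TC Tfh by a fold of 2.07.

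Receptors that feed into NF-κB and genes known as its targets were mostly higher in Tfh. Of 15 receptor genes 14 were tested, and 11 were called higher and 2 lower in B6 Tfh and 11 and 1 in TC Tfh, with median log2 fold changes of 2.55 and 2.33. Tnfrsf4, which encodes OX40, rose from 19.4 ± 2.87 to 298 ± 35.7 CPM in B6 and from 13.9 ± 0.997 to 193 ± 10.3 in TC. Tnfrsf1b, the second TNF receptor, rose by folds of 6.57 and 7.26, while Tnfrsf1a, the first, fell by folds of 2.03 and 2.09. Regulatory T cells also carry OX40 and GITR, and the regulatory markers that moved with these receptors include Tnfrsf4 and Tnfrsf18 themselves. Between the strains 2 receptors were called higher and 4 lower in TC Tfh, and 1 and 5 in TC Tn: Tnfrsf18, which encodes GITR, was lower by folds of 1.64 and 1.92, Tnfrsf4 by 1.55 and 1.43, and Tnfrsf1b by 1.24 and 1.38.

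Of 29 target genes 26 were tested, and 19 were called higher and 4 lower in B6 Tfh and 18 and 5 in TC Tfh, with median log2 fold changes of 1.63 and 1.75. Cd83, a surface protein of activated lymphocytes, had 258 ± 30.3 CPM in Tfh against 2.16 ± 0.697 in Tn of B6 mice, and 186 ± 26.5 against 1.76 ± 0.111 in TC. Ebi3, a cytokine subunit, stood at 18.3 ± 1.81 and 17.3 ± 5.19 CPM in Tfh of B6 and TC and near 0.1 in Tn. Tnfaip8 rose by a fold of 4.05 in TC, and Bcl2a1d, a survival gene with near-identical copies and so of uncertain counts, rose from 0.477 to 14.7 CPM in B6. Between the strains 2 targets were called higher and 9 lower in TC Tfh, and 3 and 9 in TC Tn, with median log2 differences of -0.21 and -0.26. Ltb, which encodes lymphotoxin-β, was lower in TC by folds of 1.36 in Tfh and 1.33 in Tn, Cd83 by 1.39 in Tfh, while Cflar, an inhibitor of caspase-8, was higher by 1.27 in each and Tap1, a peptide transporter, by 1.19 in Tn. No member of the 6 lists was called for the interaction in edgeR, and 2 were in DESeq2.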

How the data were processed

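RNA was extracted from the sorted Tfh and Tn cells of each mouse and made into stranded libraries, per the labels' protocols. The authors deposited whole-number read counts per gene for the 14 libraries. STAR 2.7, DESeq2 and mm10 are named in the submitters' processing notes, with no role or order, and for the counting tool and its strand setting the sources used here give no name. The counts were fitted with edgeR 4.0.16 in R 4.3.3 (TMM, filterByExpr with a minimum count of 10, robust quasi-likelihood test, a mean for each of the 4 groups), with Benjamini-Hochberg adjustment over 13427 genes in each of 5 comparisons. Alternatives used DESeq2 1.42.0, limma 3.58.1 (voom), other scalings and filters, a mouse block and left-out libraries, 2 of them chosen after seeing the data (without both libraries of TC mouse 4 or of B6 mouse 1). The fit was tested on simulated data. Levels per length used exon lengths from GENCODE M21, found for 92.7% of symbols.

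The genes and lists were chosen with earlier results of these data known. All 10 genes are described, with up to 3 genes of each pathway list by smallest adjusted p in each comparison, all IκB kinase genes, and for Tnfaip3 the 2 most correlated genes with a mean of at least 5 CPM. Fos, Hspa1a, Hspa1b and Hsp90aa1 were added to show their list. Some items that the rule names are not reported here.

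Tfh and Tn libraries with 1 number come from 1 mouse, per the labels' protocols. Deviations of the 2 libraries from their group means correlated over genes at 0.30, 0.11, 0.04 and 0.20 in B6 mice 1 to 4 and at 0.21, 0.21 and 0.26 in TC mice 1, 2 and 4. Libraries of a group differed by 5.31 to 20.4 chi-square units per degree of freedom, so none was a repeat of another.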

Additional observations from a re-analysis of the deposited data

Results flagged for a closer look

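Rel in the Tn library of B6 mouse 1 stood apart from the other B6 Tn libraries, at 98.0 CPM against 83.2 to 85.3. Its gap to the nearest library was 0.857 of the whole range, above Dixon's critical value for 4 libraries. Such a gap arises by chance in about 1 in 20 groups, and all 10 genes were checked in B6 Tfh and in B6 Tn.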

How the results depend on the processing

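Over all alternatives, 1040 of the values for single genes kept their direction and their side of the threshold, 82 lost the call, 12 gained it and 36 changed sign. No value that changed sign was called in the fit reported. The median of all genes moved by at most 0.0427 (log2) under any alternative, without the filter, and by at most 0.0385 under another scaling. With 1 library left out, 2 to 6 of the 10 genes were called between the strains in Tfh and 2 to 6 in Tn, and without both libraries of TC mouse 4 the number in Tn was 2. For the interaction, pathway list calls, 0 as reported, were 2 in DESeq2, 2 in limma voom, 1 with TMM computed without receptor, immunoglobulin, mitochondrial and ribosomal protein genes, 1 without the filter, 1 without TC mouse 4 and 0 to 1 with 1 library left out. With mouse as a block, 1 of the 10 genes (Nfkbid, -0.34) and 2 pathway list members were called for the interaction, and among the 10 genes the block changed no call between Tfh and Tn. The block could not be fitted between the strains, whose mice differ. There limma voom with a random mouse effect called Nfkb2 in Tfh as well (-0.20, adjusted p 0.0463). Over all genes the interaction called 282, against 533 in DESeq2, 580 in voom, 712 with the block, 125 without TC mouse 4 and 137 to 299 with 1 library left out. The share of these calls that was higher went from 41.1% to 30.8% with the reduced TMM and 27.2% without the filter, to 49.9% in DESeq2, to between 40.2% and 54.5% with 1 library left out and to 55.2% without B6 mouse 1.

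Values near 0 changed sign, and the cause was not tested. Rela between strains in Tfh was 0.0044 without TC mouse 4. Nfkb1 between strains in Tn was 0.0025 without the filter, 0.019 at a count minimum of 50, 0.0084 with only the groups compared and 0.013 without TC mouse 4. The interaction of Nfkb1 was 0.00331 without B6 mouse 1. That of Nfkb2 was -0.020 with the reduced TMM, -0.034 without the filter, -0.00160 at a count minimum of 50, -0.020 without TC mouse 4 and -0.00548 without B6 mouse 1. With 1 library left out the ranges were -0.0248 to 0.16 for Bcl3 between cell types in B6, -0.0651 to 0.0228 for Nfkb1 and -0.0570 to 0.00387 for Rela between strains in Tfh, and -0.0348 to 0.00670 for Nfkb1 in Tn. For the interaction they were -0.0538 to 0.0344 (Nfkb1), -0.0477 to 0.0942 (Nfkb2), -0.0355 to 0.18 (Rel), -0.0367 to 0.12 (Nfkbie), -0.26 to 0.40 (Tnfaip3) and -0.0589 to 0.19 (Bcl3).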
